A study of Drosophila melanogaster with 8 samples.

Results

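The genes described here encode the mitochondrial respiratory chain and ATP synthase. They were chosen by name from the Ensembl annotation of Drosophila melanogaster, as nuclear protein-coding genes whose symbol starts with ND- (complex I), Sdh (complex II), UQCR- (complex III), COX (complex IV) or ATPsyn (complex V). The rule found 88 members among 13968 nuclear protein-coding genes. Of these, 24 carry the symbol of another chain gene, or an older name of one, followed by L (for like), some with a further digit, and are called testis-type paralogues. The other 64 are called the other members. Testis expression was not measured in these data, and the name stands for the naming rule alone. The rule also takes in Sdhaf3, which in other species is an assembly factor of complex II rather than a subunit of it.

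Complex I takes electrons from NADH and complex II takes them from succinate. Complex III passes them to cytochrome c and complex IV hands them to oxygen, while proton pumping by complexes I, III and IV drives ATP synthesis by complex V. A few subunits come from the mitochondrial genome and all the others from the nucleus, and Drosophila has, for many nuclear subunits, a second gene copy known for expression in the testis. In the adult midgut, intestinal stem cells and their enteroblast daughters are together called progenitors.

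The study asked where the zinc finger transcription factor Chronophage (Cph) lies on DNA in midgut progenitors. In NanoDam, a nanobody that binds YFP carries Dam methylase to an endogenously tagged protein, so that GATC sites near it are methylated, and the methylated fragments are amplified and sequenced. The 4 Cph NanoDam samples had the genotype CphYFP x UAS-NanoDam x esgTS, and the 4 NanoDam-only control samples UAS-NanoDam x esgTS without the tagged protein. Both therefore carried the same Dam source, driven in esg-positive progenitors, and a control peak records where unguided Dam reaches DNA. Rearing was at 18 °C. Adults of 3 to 5 days then spent 17 h at 29 °C, and 30 midguts were pooled per sample. Replicates 3 and 4 are labelled batch 2, while replicates 1 and 2 carry no batch label.

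Depth ranged from 55557571 to 107278227 reads in Cph NanoDam libraries and from 70573626 to 125721243 reads in controls, and within each replicate the control had 1.14 to 1.31 times the reads of its Cph partner. Lists called without a control hold 24779 to 30062 peaks in Cph NanoDam libraries and 25202 to 29463 in controls. Of 4 progenitor markers, esg had a peak at a transcription start in all 8 libraries and Delta and Sox21a had a start peak in none. Peaks did cover 30.3% of the starts and gene body of Delta and 38.9% of those of Sox21a in Cph NanoDam libraries. In controls they covered 39.0% and 46.2%, and the medians over all genes were 16.2% and 18.0% in the same order of groups. The fourth marker, klu, had one in 3 Cph NanoDam and 4 control libraries. Of 7 testis germ line genes, 4 had a start peak in no library and bam had one in all 8. The germ line gene mia had one in 4 Cph NanoDam libraries and 1 control, and vas in 3 controls and no Cph NanoDam library. Among all nuclear protein-coding genes, 38.7% had a start peak in all 8 libraries and 34.9% in none. A peak shows methylation and not transcription, so these marker counts do not measure which cells were present.

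A GATC is the only place where Dam can leave its mark, so sites at regions counted or described below are shown first. They are on the forward strand of BDGP6 with GATC in capitals. The stretches lie in COX4, at the end of COX5B just upstream of COX5BL, in the 3′ untranslated region of COX5BL, in exons of ND-51 and ND-ACP, and on either side of the end of ND-13B.
COX4, 2L:19959992-19960021: gcctaaatcaatcGATCttgggtcagtcat
COX5BL, 2L:6559204-6559233: gcttccattttcaGATCtgcaaacgtgttt
COX5BL, 2L:6560038-6560067: tcccacccgtttaGATCGATCacacagagc
ND-51, 2L:6061977-6062006: GATCgtggcgcatGATCtcgcGATCcttgc
ND-ACP, 3L:1331146-1331175: ctacgacaaGATCGATCccagcaaggtaaa
ND-13B, 3L:10693127-10693156: gaaaacgaactgaGATCgtcagtgGATCga
ND-13B, 3L:10693320-10693349: ccttgggctccatGATCtgggctggtggcc
COX4 has 1 GATC in its stretch, whereas the ND-51 site holds 3 and the second COX5BL site and the ND-ACP site hold 2 each, back to back. The COX4, COX5BL and ND-51 positions return below beside the peaks that cover them. The ND-ACP and ND-13B sites belong to regions that are counted below and not described singly. That ND-ACP region starts at 1331159 and holds 1 of the 2 GATC.

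The first comparison asked which members have a peak at a transcription start, counting a gene where a peak overlapped the 500 bp on either side of any of its starts. Between 38 and 47 of the 88 members had such a peak in a Cph NanoDam library (43.2 to 53.4%), against 43 to 48 in a control library (48.9 to 54.5%). Over all nuclear protein-coding genes the shares were 48.4 to 55.1% in Cph NanoDam libraries and 53.0 to 55.1% in controls. In all 8 libraries 34 members had one (38.6%), where the share among all nuclear protein-coding genes was 38.7%, and 36 members had none in any library (40.9%, against 34.9% of all genes). No member had a start peak in all 4 Cph NanoDam libraries and in no control, or in all 4 controls and no Cph NanoDam library. The chain as a whole thus held start peaks about as often as other genes. The count was 14 members with windows of 250 bp and 56 with windows of 1000 bp, with no count over all genes at these settings.

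The testis-type paralogues stood below the other members in every library. In Cph NanoDam libraries 9, 7, 5 and 6 of the 24 paralogues had a start peak (28.1 ± 7.1%, SD, n = 4), against 38, 35, 33 and 35 of the 64 other members (55.1 ± 3.2%). In control libraries the counts were 10, 10, 7 and 8 paralogues (36.5 ± 6.3%) and 38, 35, 36 and 36 other members (56.6 ± 2.0%). Over all nuclear protein-coding genes the share was 51.2 ± 2.9% in Cph NanoDam libraries and 53.9 ± 1.0% in controls. Paralogues with a start peak in all 8 libraries numbered 5 (20.8%), whereas 29 of the other members had one (45.3%). The gap, paralogues minus other members, averaged -23.57 percentage points over the 8 libraries. This is a description of 2 sets of genes in the same libraries, with no test, and the gap is present in libraries without tagged Cph.

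**Figure D1:**
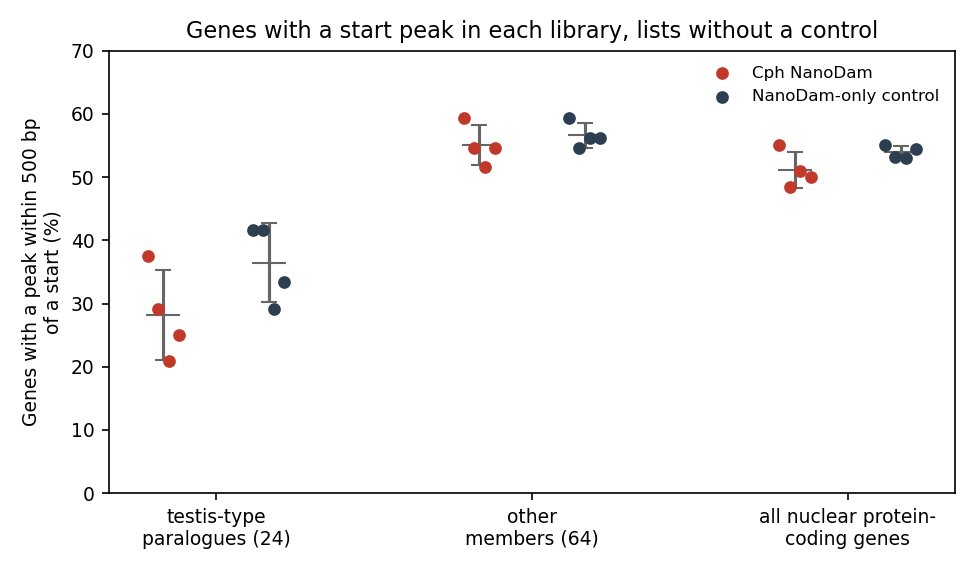
Share of genes with a peak within 500 bp of a transcription start in each library (points, %), for the 24 testis-type paralogues, the 64 other members and all nuclear protein-coding genes, with mean and SD over 4 libraries (grey). The paralogues lie between 20.8% and 41.7%, below the other members (51.6% to 59.4%) in every library.

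The 2 sets also differ in structure. Paralogue genes had a median length of 744 bp and 21 of 24 had a single start, against 1148 bp and 32 of 64 for the other members. With the 5′ end of the gene record alone as the start, the gap was -17.90 points. The median number of GATC sites was 3 within the start windows of paralogues, and 3 in those of the other members, and no member lacked one there, while 5.41% of all genes did. Among the other members, start windows with a peak in all 8 libraries held a median of 3.76 GATC per kb, and those with a peak in none 2.34 per kb. Among paralogues both figures were 3.00 per kb. The part of length, number of starts and site density in the gap was not tested.

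By complex, the share of members with a start peak in all 8 libraries ran from 26.7% in complex V to 44.4% in complex III, beside 38.7% of all genes, and differences between complexes were not tested. Complex I, the largest set, had 17 of 40 members with a start peak in all 8 libraries and 18 with none. Complex II had 3 of 8 and 4 of 8, complex III 4 of 9 and 4 of 9, and complex V 4 of 15 and 8 of 15. In complex IV, cytochrome c oxidase, 6 of 16 members had a start peak in all 8 libraries and 2 had none, so most of its members were marked in some libraries. None of the 3 Sdh paralogues and none of the 4 ATPsyn paralogues had a start peak in any library. Of all 24 paralogues 14 had none (58.3%, against 34.9% of all genes). In complexes I, III and IV these were 4 of 6, 1 of 3 and 2 of 8 paralogues.

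Across the whole gene region (start windows joined with the gene body) the share of bases in peaks gave a graded measure. The median member had 17.0% of its region in peaks in Cph NanoDam libraries and 17.3% in controls, and the corresponding medians over all genes were 16.2% and 18.0%. The highest control values among the other members belonged to COX7A, COX8, ND-ASHI, ND-B8 and SdhA. COX7A, a small subunit of complex IV, reached 78.6 ± 24.8% in Cph NanoDam libraries and 79.7 ± 30.4% in controls. SdhA, the flavoprotein of complex II, had 63.8 ± 11.9% and 64.7 ± 11.3%, and ND-B8, an accessory subunit of complex I, 63.7 ± 3.0% and 68.3 ± 4.5%, in the same order of groups (SD, n = 4 each). At the other end 18 members had no peak base in any library (20.5%, against 16.2% of all genes), of which 11 were paralogues (45.8% of the 24). The 7 others were ND-AGGG, ND-B14.5A and ND-B22 of complex I, UQCR-14 of complex III, ATPsynB and ATPsynO of complex V, and Sdhaf3. A value of 0 says that no peak was called, and it does not say that no read lay there.

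The second comparison set each gene's share in Cph NanoDam against control with limma, with the replicate number as a block. It tested 10697 genes with a peak base in at least 4 libraries and called 21 higher (0.196%) and 76 lower (0.71%) in Cph NanoDam at an adjusted p of 0.05. With pileup, equalised between libraries, 71 were called higher and 75 lower. Equalising draws higher and lower counts towards balance by construction, and the shares were not equalised. Whether the excess of lower calls depended on the scale was therefore not tested. Among members 64 were tested, 1 was called higher and none lower. At an unadjusted p of 0.05, 3 members were higher and 8 lower, and the median difference was -1.18 points for members and -1.29 points for all genes tested. Of the members tested, 38 had a lower share in Cph NanoDam and 21 a higher one, beside 6804 lower and 3744 higher among all genes tested. With pileup these counts were 36 lower and 28 higher for members, and 5376 lower and 5321 higher for all genes.

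COX4, a nuclear gene that encodes a subunit of cytochrome c oxidase, was the member called. Its region was in peaks for 15.3, 18.8, 22.8 and 23.0% in Cph NanoDam libraries 1 to 4, against 0.162, 0, 0 and 0% in controls. The groups did not overlap, and the difference was 19.95 points (SE 1.67, adjusted p = 0.0393, limma). COX4 met the minimum of 4 libraries through the Cph NanoDam group alone, and with all nuclear protein-coding genes tested it was not called (adjusted p = 0.0713). COX4 (FBgn0032833) lies on 2L from 19958713 to 19960065 on the forward strand, and the peak sits at its far end. The stretch common to the 4 Cph NanoDam libraries ran from 19959759 to 19960042 (284 bp). It began 1046 bp after the start, and 126 of its bases are coding sequence of the last exon and the others 3′ untranslated sequence. Its single GATC is the COX4 site printed above. The coding bases, printed because they hold no GATC of their own although every Cph NanoDam peak spans them, are these.
COX4, 2L:19959759-19959884: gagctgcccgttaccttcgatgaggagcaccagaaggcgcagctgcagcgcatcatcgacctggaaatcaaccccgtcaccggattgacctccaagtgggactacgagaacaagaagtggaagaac

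The peak was weak by the caller's own measure. Its fold enrichment over local background was 2.48, 1.77, 1.55 and 1.95 in Cph NanoDam libraries 1 to 4. In the lists that set Cph NanoDam against its own control, it was called in replicates 1, 3 and 4 at 2.07, 1.53 and 1.99 and was not called in replicate 2, so it is no region shared by all 4. Leaving out any 1 of the 4 replicates ended the call, with adjusted p from 0.0602 to 0.213 and a difference of 18.92 to 21.55 points. Within replicates 1 and 2 the difference was 16.97 points (adjusted p = 0.455) and within replicates 3 and 4 it was 22.94 points (adjusted p = 0.0961).

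**Figure D2:**
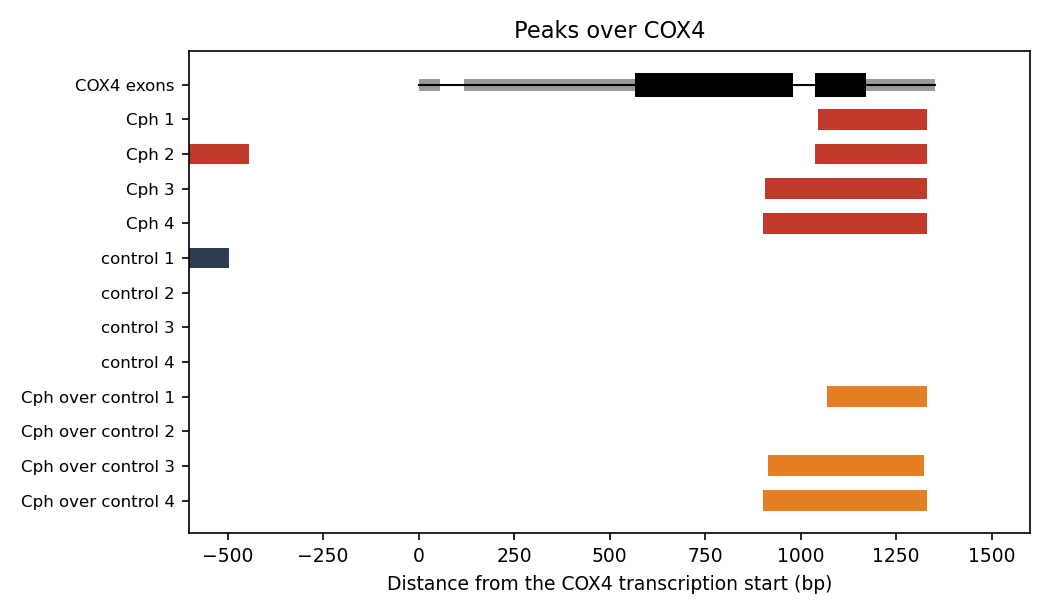
Peaks over COX4, by distance from its transcription start (bp), with exons in grey and coding sequence in black at the top. The 4 Cph NanoDam libraries (red) and the Cph-over-control lists of replicates 1, 3 and 4 (orange) have a peak at the last exon, and no control library (dark blue) does.

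Other members with the largest positive moderated t did not pass the adjusted threshold. ATPsynD, a stalk subunit of ATP synthase, was in peaks for 62.2, 80.1, 72.9 and 72.3% in Cph NanoDam libraries, against 51.2, 71.2, 54.8 and 51.2% in controls. It was higher in each of the 4 pairs, by 14.76 points (SE 2.91, adjusted p = 0.164, limma), but its start window overlaps those of cdi and mRpL55. With pileup in place of the share the sign turned (-0.59 on the log2 scale, adjusted p = 0.123, limma). COX7B differed by 5.00 points (adjusted p = 0.286) and ND-B17.2, an accessory subunit of complex I, by 1.34 points (adjusted p = 0.327). COX5BL, the paralogue of COX5B, had 94.7, 97.8, 97.8 and 61.6% in Cph NanoDam libraries and 65.3, 96.0, 23.6 and 58.4% in controls (difference 27.12 points, adjusted p = 0.407). The spread of the controls was wide there, the groups overlapped, and without replicate 3 the difference was 11.44 points.

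In the opposite direction the lead was held by COX6B and ND-ASHI. COX6B, a peripheral subunit of complex IV, had 20.4, 0, 26.6 and 32.9% in Cph NanoDam libraries and 35.5, 32.2, 46.7 and 45.4% in controls, lower in each pair (difference -19.95 points, SE 3.88, adjusted p = 0.164, limma). The lowest control lay just under the highest Cph NanoDam library. ND-ASHI, an accessory subunit of complex I, had 72.1, 25.0, 16.9 and 35.3% in Cph NanoDam libraries and 85.6, 85.6, 66.2 and 74.2% in controls (difference -40.56 points, SE 8.67, adjusted p = 0.184). Replicate 1 of Cph NanoDam lay within the range of the controls and the other 3 lay below it. The start window of ND-ASHI overlaps that of Fum1. ND-39 had 21.5, 15.9, 21.1 and 17.2% against 26.5, 26.7, 25.9 and 25.2% (difference -7.14 points, adjusted p = 0.188). ND-49 on chromosome 4 differed by -4.25 points (adjusted p = 0.247) and ND-B18 by -10.80 points (adjusted p = 0.281). Both are subunits of complex I, and ND-49 had no peak base in 3 of the 4 Cph NanoDam libraries and 5.16 to 6.15% in each control.

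**Figure D3:**
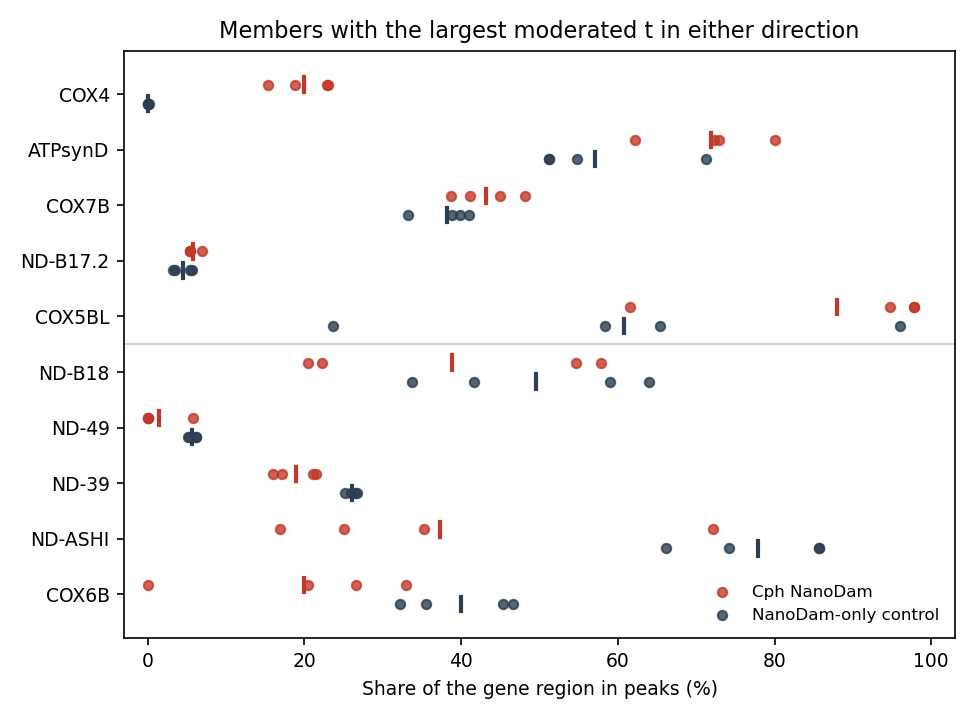
Share of the gene region in peaks (%) in each library for the 5 members with the largest positive moderated t (above the line) and the 5 with the largest negative one (below it). Points are the 4 Cph NanoDam libraries (red, upper row of each gene) and the 4 controls (dark blue, lower row), and ticks are means. COX4 is near 0 in all controls. It passed the adjusted threshold of limma (adjusted p = 0.0393), though not without the minimum of 4 libraries (adjusted p = 0.0713).

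Among members tested, the groups did not overlap with Cph NanoDam above for 2, COX4 and ND-30 (1.93% of all genes tested), and with Cph NanoDam below for 3, COX6AL2, COX8 and ND-39 (6.58% of all genes tested). ND-30, a core subunit of complex I, had 55.2% in each Cph NanoDam library and 52.6% in each control. The values were identical within each group, and the difference of 2.63 points did not pass the test (adjusted p = 0.408, limma). COX8, a small subunit of complex IV, had 68.8, 0, 68.8 and 68.8% in Cph NanoDam libraries and 73.3, 100, 70.8 and 70.2% in controls (adjusted p = 0.540).

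The third comparison used the 4 lists that the authors called for Cph NanoDam over the control of the same replicate. In these lists 22 to 26 members had a start peak in a replicate (25.0 to 29.5%, against 31.6 to 35.6% of all genes). In all 4 replicates 11 members had one (12.5%), where the share of all genes was 15.8%, and 49 had none in any (55.7%, against 47.0% of all genes). The 11 comprised 5 of 24 paralogues (20.8%) and 6 of 64 other members (9.4%). Averaged over single replicates the order was the other way, with a start peak at 25.0% of paralogues and 28.9% of other members. This held in replicates 3 and 4, the labelled batch (20.8% of paralogues in each, against 26.6% and 32.8%). In replicates 1 and 2 the shares were 29.2% and 28.1% in each. The 11 were COX5BL, UQCR-11L, ND-51L1, ND-51L2 and COX7AL among paralogues, and ND-B12, ND-ACP, SdhB, SdhD, ATPsynF and ND-MWFE among the others. The count was 0 for peaks of at least 2-fold enrichment, 2 with windows of 250 bp and 29 with windows of 1000 bp. No count over all genes at these settings stands beside them.

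Fold enrichments at these starts were modest, from 1.26 to 3.57. COX5BL had 1.85, 2.15, 2.54 and 2.14 in replicates 1 to 4, the highest weakest replicate of the 11. Ranked among all genes with a start peak in the same list, these values lay at the 63.3, 55.6, 74.8 and 70.5 percentile. ND-ACP, the acyl carrier protein of complex I, had 1.79, 3.57, 2.43 and 2.24. Its peaks began at 1330447 in an intron, at the far edge of the window around its start at 1329949. ND-B12, an accessory subunit of complex I, had 1.80, 1.83, 2.89 and 1.97. UQCR-11L had 1.77, 2.28, 2.01 and 1.87, and SdhB, the iron-sulfur subunit of complex II, 1.74, 1.88, 1.69 and 1.83. SdhD, a membrane anchor of complex II, had 1.57, 2.25, 2.55 and 2.13. Each value is the highest of any peak touching the start window, and its position can differ between replicates. For SdhD that peak began at 23761097 in replicate 1 and at 23759865, 23759850 and 23759901 in replicates 2 to 4. For COX7AL it began at 8343860 in replicate 1 and at 8343002, 8342909 and 8342906 in the others. For COX5BL replicates 1 and 2 gave a peak at its upstream end, and replicates 3 and 4 one at its 3′ end. No member of the 11 averaged above the 74.4 percentile, which was the mean of ND-ACP, and COX7AL averaged 25.0 and ATPsynF 32.9. In the lists called without a control, the same starts carried peaks in controls too, in all 4 controls for 9 of the 11 and in 3 for SdhB and ATPsynF.

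**Figure D4:**
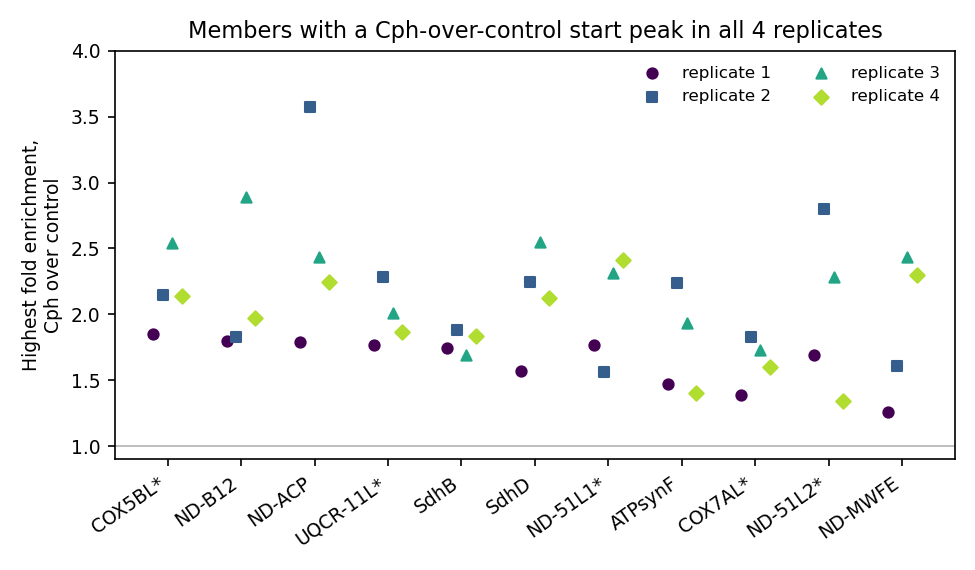
Highest fold enrichment of a Cph-over-control peak within 500 bp of a start, for the 11 members with such a peak in all 4 replicates, ordered by their weakest replicate (symbols are replicates, an asterisk marks a testis-type paralogue). Values lie between 1.26 and 3.57, and the grey line at 1 marks no enrichment.

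Unbroken stretches of at least 200 bp that lay in a Cph-over-control peak in every one of the 4 replicates are called shared regions here. Of the members 13 had one in their starts or body (14.8%), where the share of all genes was 28.4%. The count was 25 without replicate 1 and 3 at a fold of at least 2, with no count over all genes at these settings. Member genes are short (median 1097 bp, against 2164.5 bp for all genes), and the part of gene length in this share was not tested. There were 23 distinct regions, 18 of them with a peak in all 4 controls and 1 with a peak in none, and 10 held no GATC. The region without a control peak, in an intron of ND-15, had no peak in any Cph NanoDam list called without a control either. Their median lowest fold over the replicates was 1.69, against 1.67 over all 7289 shared regions. As an example of a stretch without GATC, part of the first ND-ACP region is printed. That region is intronic and begins at 1330447, so it only touches the edge of the start window of ND-ACP, which starts at 1329949.
ND-ACP, 3L:1330501-1330600: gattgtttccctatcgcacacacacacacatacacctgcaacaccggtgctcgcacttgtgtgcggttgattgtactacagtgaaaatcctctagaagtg

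Of these regions, 8 touched a start window of a member. ND-15, a subunit of complex I whose gene record spans 41305 bp, had 10 of them in its introns, and 8 of the 10 lay on another gene nested there. COX5BL had 2, a 386 bp one that covers the end of COX5B, with the first COX5BL site printed above, and part of the 122 bp between the 2 genes, and a 215 bp one at its 3′ end, where it overlaps Trmt6. COX5B shares the former. The regions of UQCR-11L, ND-51L1, ND-51L2 and ATPsynF also lay on a second gene, namely Acsl, Smurf, Trpm and CG13587. ND-51, the flavoprotein subunit of complex I, had 1 region of 432 bp in coding sequence with no second gene (fold 1.30, 1.54, 2.40 and 1.77), and the 3 GATC printed above lie in it. ND-B14.7, named here after its values were seen, had the strongest, 297 bp at the end of its coding sequence with a fold of 3.54, 7.26, 2.77 and 4.07 in replicates 1 to 4 and a peak in all 4 controls.

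Each paralogue was then set beside the gene it is named after, by the mean share of the region in peaks over the 8 libraries. Of 24 pairs the paralogue was higher in 8, the other gene in 14, and 2 pairs (ND-B14.5AL and UQCR-14L) had no peak base in either. The paralogue was higher in all 8 libraries for 3 pairs and the other gene for 12. SdhAL had 0% and SdhA 64.2%, SdhBL 0% and SdhB 37.6%, SdhCL 0% and SdhC 32.7%, ND-24L 0% and ND-24 36.0%, and COX6CL 0% and cype 34.2%. ATPsynCF6L, ND-20L and ATPsynepsilonL were at 0% too, against 22.2% for ATPsynCF6, 25.1% for ND-20 and 46.9% for sun. COX7AL (23.2%) and COX7AL2 (12.4%) both lay below COX7A (79.1%), and COX7CL (13.2%) below COX7C (27.5%), 281 bp away. The 3 paralogues above their partner in all 8 libraries were COX5BL (74.4%, against 25.1% for COX5B), ND-51L1 (53.4%, against 30.6% for ND-51) and UQCR-11L (54.2%, against 5.1% for UQCR-11). These 3 paralogues overlap a further gene, as described above. The region was 1001 bp long for UQCR-11L and 5963 bp for UQCR-11. In lists called without a control, start peaks of UQCR-11 had a fold of 5.52 to 16.5, against 2.25 to 4.75 for UQCR-11L. Those of ND-51 (3.88 to 5.06) likewise lay above those of ND-51L1 (1.83 to 2.52). COX5BL had a start peak in 8 libraries and COX5B in 3. ATPsynGL at 0% differed from ATPsynG in 1 library, and ATPsynbetaL had 12.9%, against 26.8% for ATPsynbeta. COX6AL (25.7%) and COX6AL2 (14.4%) were set against levy, which had no peak base in any library.

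**Figure D5:**
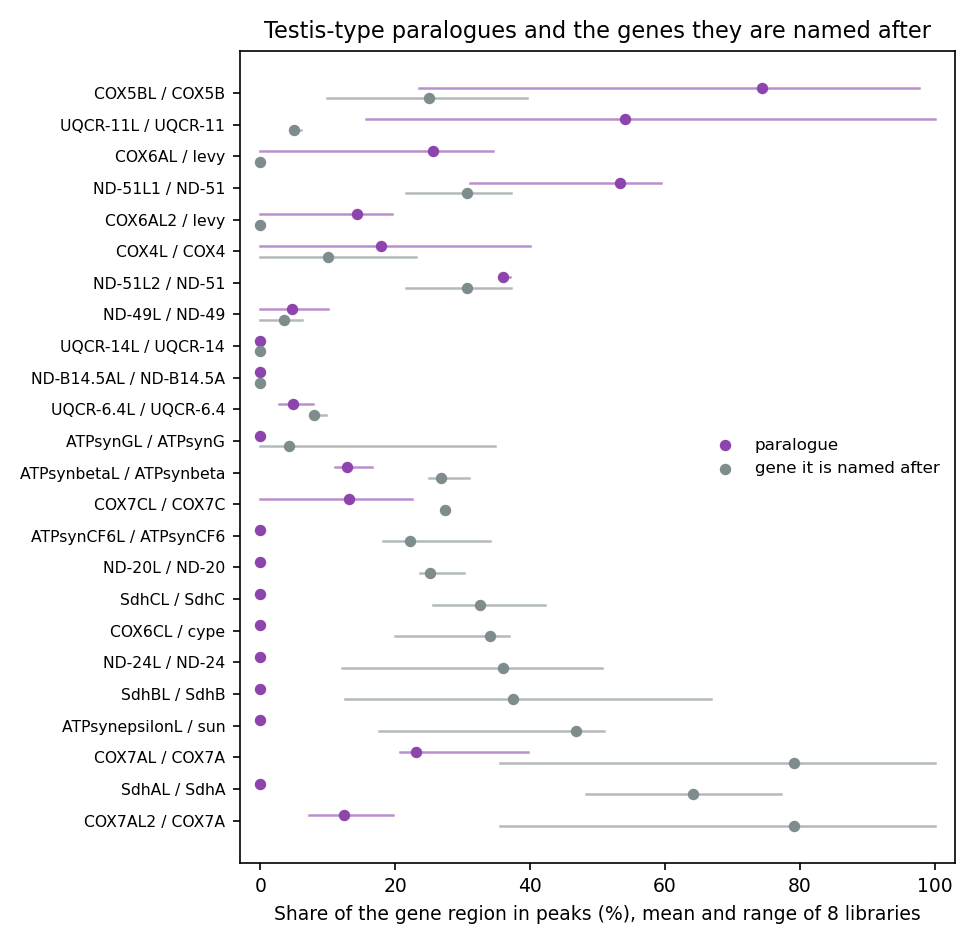
Mean share of the gene region in peaks (%) over the 8 libraries for each testis-type paralogue (purple, upper point) and the gene it is named after (grey, lower point), with the range over libraries as a line. Of 24 pairs, 14 have the lower value in the paralogue, and COX5BL, UQCR-11L and ND-51L1 lie above their partner in every library.

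COX4L, on the opposite pattern to COX4, had 25.9, 0, 0 and 0% of its region in peaks in Cph NanoDam libraries and 40.0, 40.0, 0 and 37.8% in controls. The difference was -22.97 points (SE 8.25, adjusted p = 0.303, limma), and groups overlapped at 0. COX6AL2 had 18.3, 0, 8.01 and 12.0% in Cph NanoDam libraries and 19.5, 18.5, 19.3 and 19.5% in controls, with no overlap (difference -9.62 points, adjusted p = 0.285). COX6AL had 34.0, 34.0, 0.288 and 0%, against 34.0, 34.0, 34.5 and 34.3% in controls, so that the low values were those of replicates 3 and 4, the labelled batch. ND-49L, UQCR-6.4L and COX7AL2 stayed at or below 19.7% in every library of either group. None of the 13 paralogues tested was called.

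Other genes of the chain and its regulators were followed as a group of 15, among them both cytochromes c, the complex III subunits RFeSP, Cyt-c1, Cyt-c1L and ox, the complex IV subunits cype and levy, the ATP synthase genes blw, sun and knon, and the regulators srl (the fly PGC-1), ewg, Ets97D and TFAM. Of these 15, 6 had a start peak in all 8 libraries and 4 in none, beside 38.7% and 34.9% of all genes. The regulators ewg and Ets97D had a Cph-over-control start peak in all 4 replicates, as did 15.8% of all genes. Of 11 tested, none was called and 10 were lower in Cph NanoDam, beside 6804 of the 10697 genes tested. With pileup, 8 of the 11 were lower and 3 higher. The srl region was in peaks for 35.9 ± 3.7% in Cph NanoDam libraries and 45.0 ± 5.6% in controls (difference -9.14 points, adjusted p = 0.197), and that of Cyt-c-p, the somatic cytochrome c, for 9.3 ± 7.7% and 18.2 ± 6.5% in the same order (SD, n = 4 each, adjusted p = 0.278, limma).

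The promoters (250 bases before and 50 after the gene's 5′ end) were searched on both strands for several short motifs. The DNA replication-related element TATCGATA occurred in none of the 24 paralogues and in 9 of the 64 other members (14.1%), against 9.36% of all genes. The E-box CACGTG was in 2 paralogues and 2 of the other members, and in 4.20% of all genes. CCGGAA was in 1 paralogue and 3 of the other members, and in 6.77% of all genes. TTACGTAA and GCGCATGC were in 0 members, and in 0.451% and 1.05% of all genes. None of these motifs holds GATC, and a match is a description of the letters only.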

How the data were processed

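Broad peak lists of 8 NanoDam libraries (4 per genotype) were used. Per the labels and file headers, reads were trimmed (Trim Galore 0.6.10), aligned to BDGP6 (Bowtie2 2.5.4) and given to MACS2 (2.2.9.1 in the processing notes, 2.1.4 in the headers) with a q of 0.05 and a broad cutoff of 0.1. The authors deposited for each peak the fold enrichment as a ratio over local background, the −log10 q-value, and the pileup signal, which is not scaled for depth. A peak's presence depends on depth, and depth at a site is unknown here. Filtered copies were identical to 6 of 6 lists and were left out.

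Genes came from Ensembl release 115 and sequence from RefSeq's release 6 genome, where all 88 members had the same coordinates. The share of each gene's region in peaks was fitted with limma 3.58.1 (R 4.3.3, trend, Benjamini-Hochberg over all genes tested), with the replicate number as a block. Same-numbered libraries deviated together (correlations 0.38, 0.20, 0.22 and 0.23), each over 0.1, so the number was kept as the block, but Cph NanoDam 3 with control 4 (0.26) and Cph NanoDam 4 with control 3 (0.34) deviated together as much, so within replicates 3 and 4 the number cannot be told apart from the batch. Overlap and fit were tested on simulated data. Members, lists and named genes (all paralogues, the 10 with the highest weakest-replicate fold, the 5 largest t each way, the 5 highest and lowest control shares) were chosen with earlier results of these data known. Alternatives tried were the thresholds, windows, overlaps and left-out replicates given below.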

Additional observations from a re-analysis of the deposited data

Results flagged for a closer look

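In groups of 4 libraries, the gap between the most distant library and its nearest neighbour was set against the range of the group. It was exceptional in 13 of 62 groups. The rate of about 1 in 20 that chance gives does not hold for these shares, since the ratio is at or near its maximum by construction where the other 3 values are tied, as for ND-49, ND-B17.2 and COX8 in Cph NanoDam and COX4 and ATPsynF in controls. The share of the region in peaks was 61.6% for COX5BL in Cph NanoDam replicate 4 (the others 94.7 to 97.8%), 15.7% for UQCR-11L in Cph NanoDam replicate 2 (others 49.9 to 54.0%) and 100% in control replicate 1 (others 51.9 to 55.6%). ND-B12 reached 70.7% in control replicate 2 (others 43.6 to 46.2%), SdhB 66.8% in Cph NanoDam replicate 3 (others 23.0 to 29.1%) and ND-51L1 31.1% in Cph NanoDam replicate 1 (others 59.0 to 59.4%). ATPsynF had 4.62% in control replicate 2 (others 20.6%), COX7AL 39.7% in Cph NanoDam replicate 1 (others 20.7 to 20.8%) and ND-B17.2 6.86% in Cph NanoDam replicate 2 (others 5.43%). ND-49 had 5.72% in Cph NanoDam replicate 1 (others 0%) and COX4 0.162% in control replicate 1 (others 0%). COX8 had 0% in Cph NanoDam replicate 2 (others 68.8%) and 100% in control replicate 2 (others 70.2 to 73.3%).

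The mitochondrial genome, which encodes the remaining subunits of the chain, was left out of the comparisons above. It held 4 peaks in each of the 8 lists called without a control, over 15.5, 18.4, 18.8 and 18.9% of its bases in Cph NanoDam libraries and 15.5, 15.9, 14.9 and 17.5% in controls. Over control, the highest fold enrichment there was 6.40 in replicate 2, 6.81 in replicate 3 and 2.07 in replicate 4, and replicate 1 had no peak.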

How the results depend on the processing

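With the replicate number as a block, 97 genes and 1 member (COX4) were called in the share of the region in peaks. With no replicate block, 196 genes and 1 member were called. Over all genes, 146 were called with pileup, 60 without the filter and 54 at a fold of at least 2, and 0 within replicates 1 and 2 or within replicates 3 and 4 (unadjusted counts 845 and 1826 genes). No member was called with start windows alone, without the filter, at a fold of at least 2, or within either pair of replicates. Leaving out 1 replicate left 0 members and 0 to 57 genes (0 without replicate 3 or 4). COX4 kept its direction in all 10 alternatives that tested it, passing in 3 (adjusted p 0.00156 to 0.455), and ATPsynD turned with pileup (-0.59). For the 10 members named by t, 107 values under alternatives kept direction and side of the threshold and 8 did not, 7 of them of COX4.

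Members with a start peak in all 8 lists numbered 20 at a fold of at least 2, 14 with 250 bp and 56 with 1000 bp windows, and 34 to 37 without a replicate. Members with an over-control start peak in all 4 replicates numbered 0 at that fold, 7 with an overlap of 100 bp, 2 with 250 bp, 29 with 1000 bp and 12 to 15 without a replicate. Members with a shared region numbered 3 at that fold, 3 at 500 bp, and 16 to 25 without a replicate (25 without replicate 1). Counts over all genes at these settings are not given, so these changes cannot be set against those of other genes. The gap of paralogues to other members was -16.08 points with an overlap of 100 bp, -14.91 with 250 bp, -32.42 with 1000 bp and -25.00 to -21.79 without a replicate. In over-control lists it was -3.91 points, 2.47 with an overlap of 100 bp, -27.73 with 1000 bp and -5.56 to -1.22 without a replicate. The causes were not tested. Peaks give no depth per site, so an uncalled site has no upper limit.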
